A study of Mus musculus with 8 samples.

Results

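Chromatin carrying tagged KLF13 was mapped across adhesion G protein-coupled receptor (GPCR) genes and the genes of their synaptic partners. The members were taken by symbol from the annotated peak list: symbols starting with Adgr, with Tenm1 to Tenm4, Flrt1 to Flrt3 and Lrrtm1 to Lrrtm4. They held 31 of 9506 peaks, 23 at Adgr genes and 8 at partner genes. The peaks fell on 14 of 38 protein-coding members in a RefSeq gene table, which lists 27 Adgr genes and 11 partners. All samples were HT22 cells, a mouse neuronal line derived from hippocampus, that stably carried the biotin ligase BirA and had received the pTO-Klf13Bio plasmid 24 h before fixation. There were 4 libraries from chromatin precipitated on streptavidin (KLF13 ChSP) and 4 input libraries from chromatin without precipitation. Every library came from cells with the plasmid, so streptavidin capture that does not depend on KLF13 cannot be told apart from KLF13 binding. The tagged KLF13 was expressed from this plasmid, beside whatever KLF13 the cells make themselves. The list gives 1 fold of ChSP over input and 1 p-value per peak across all libraries, as the authors' values. Read depth and the spread between libraries are therefore unknown, no fold below has a replicate error, and no difference between genes was tested. The data hold no expression values, so the neuronal identity of the line could not be checked against marker genes.

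Most adhesion GPCRs have long extracellular parts that bind ligands on neighbouring cells or in the matrix. Many of them are cleaved at an autoproteolysis site next to the membrane. Latrophilins sit at synapses and bind teneurins and FLRT proteins across the cleft, while receptors of the BAI group bind C1q-like proteins and reticulon receptors. LRRTM proteins are postsynaptic and bind neurexins. KLF13 is a zinc finger factor of the Krüppel-like family, whose members bind GC boxes and CACCC boxes.

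Promoter peaks lay at 10 of 27 Adgr genes (37.0%) and at 3 of 11 partners (27.3%), where a promoter peak is one assigned to the gene with an edge at most 1 kb from a transcription start site (TSS). Among all 21900 protein-coding genes 30.9% had one, so neither share was far from that of genes in general. Any assigned peak was found at the same 10 Adgr genes and at 4 partners, against 33.6% of all protein-coding genes. The groups within the family differed in their counts. Latrophilins had promoter peaks at 3 of 4 genes, BAI receptors at 2 of 3 and group A at 2 of 3, together 7 of 10. The other Adgr groups had them at 3 of 17 genes, of which group F had 0 of 5, group G 2 of 7 and group E 1 of 3. Teneurins had them at 2 of 4 genes, FLRT genes at 1 of 3 and LRRTM genes at 0 of 4. These groups are small, and the differences between them were not tested. Pooling latrophilins, BAI receptors and group A was not planned, so nothing is read from 7 of 10 against 3 of 17. Median gene length was greater where there was a promoter peak. It was 86.2 kb for Adgr genes with a promoter peak and 71.4 kb for those without, and 34.6 and 12.3 kb over all protein-coding genes. The Adgr ranges, 18.1 to 809 kb with a promoter peak and 12.3 to 767 kb without, overlapped almost whole. The part of gene length in the counts was not tested.

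**Figure D1:**
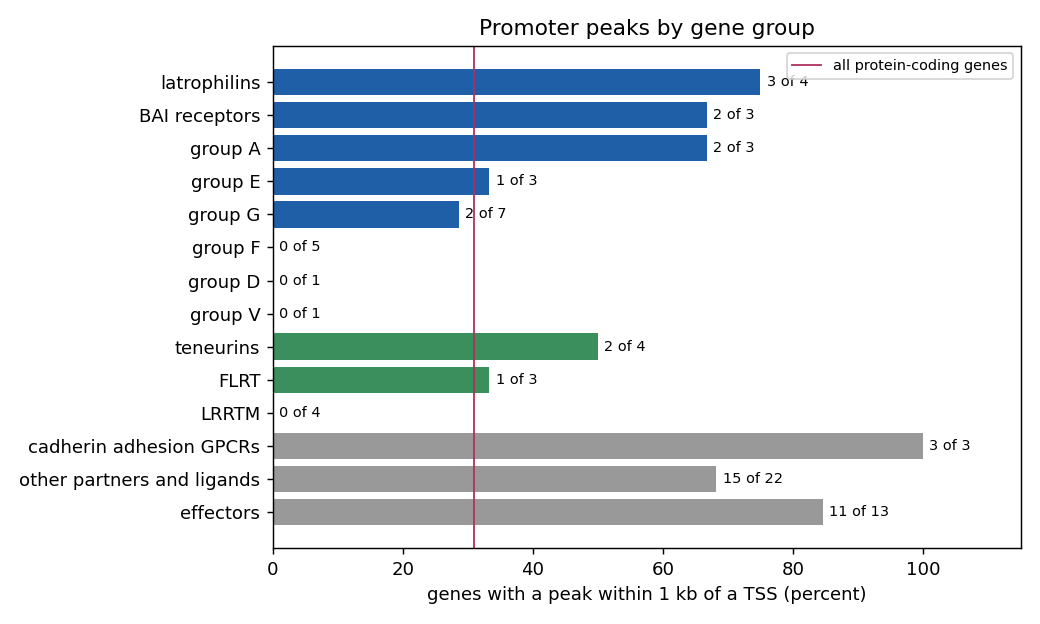
Share of genes with a KLF13 ChSP peak within 1 kb of a TSS (x axis, percent) in each gene group (y axis), with counts beside the bars, adhesion GPCR groups in blue, partners in green and related genes in grey. The line is the 30.9% of all protein-coding genes. The latrophilin bar stands for 3 of 4 genes and the LRRTM bar for 0 of 4.

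Adgrl1 (ENSMUSG00000013033), which encodes the latrophilin first known as a receptor for a spider venom toxin, had the highest fold of its group. Its promoter peak had a fold of 34.9 and was 1700 bp wide, at chromosome 8, 83899701 to 83901400, over the TSS (the authors' p = 4.47e-20). A fold lower than this was found at 83.9% of all promoter peaks. Adgrl1 had 3 further peaks, all upstream of its TSS. A narrow peak at -2598 bp had a fold of 10.3. A pair of intergenic peaks, at -23498 and -24598 bp and 600 bp apart, had folds of 28.7 and 20.6. The intergenic peak at -23498 bp thus had a higher fold than the promoter peak of any latrophilin other than Adgrl1. The promoter peak also overlapped the end with the higher coordinate of Gm26721, a long noncoding RNA (lncRNA) gene. The list assigns a peak to 1 gene only.

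Adgrl2 (ENSMUSG00000028184) had the widest promoter peak among the members and a fold near the middle of the list. That peak spanned 1900 bp over the TSS at chromosome 3, 148988401 to 148990300, with a fold of 21.9 (the authors' p = 1.7e-23). Across all promoter peaks the median fold was 22.2. A second Adgrl2 peak, 300 bp further into the gene, had a fold of 7.99, the lowest of the 31 member peaks. Adgrl3 (ENSMUSG00000037605), another teneurin and FLRT receptor, had a single peak of 1300 bp over a TSS at chromosome 5, 81019501 to 81020800, with a fold of 24.3. Adgrl4, which is placed with the latrophilins and is best known from blood vessel endothelium, had no assigned peak. Its TSS lay 714 kb from the nearest peak of the list. The stretches of RefSeq promoter sequence (GRCm38.p6) that end just before the first base of Adgrl1 and Adgrl4 are shown to set a latrophilin promoter under a peak beside one without a peak. They are chr8:83899848-83900097 and chr3:151437632-151437881, both on the plus strand and 250 bases long, and capitals mark GC boxes, GGGCGG or its reverse complement CCGCCC.
Adgrl1: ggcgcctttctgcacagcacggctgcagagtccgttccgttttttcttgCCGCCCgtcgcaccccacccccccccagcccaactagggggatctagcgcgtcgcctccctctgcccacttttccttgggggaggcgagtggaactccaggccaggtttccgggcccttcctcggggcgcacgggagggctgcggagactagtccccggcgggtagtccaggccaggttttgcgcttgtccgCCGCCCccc
Adgrl4: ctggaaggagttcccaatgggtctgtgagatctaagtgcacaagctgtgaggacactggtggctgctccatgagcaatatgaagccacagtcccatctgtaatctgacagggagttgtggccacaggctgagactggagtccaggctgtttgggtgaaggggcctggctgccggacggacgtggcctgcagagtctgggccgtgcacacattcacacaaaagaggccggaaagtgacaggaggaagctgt
The Adgrl1 stretch held 21 CpG dinucleotides and 2 GC boxes, both in the reverse orientation, and lay wholly within the peak. One of these boxes began 9 bases before the first base of the gene and the other 201 bases before it. In the Adgrl4 stretch, chosen after its values were seen, there were 5 CpG dinucleotides and 0 GC boxes. A match is a run of letters and not a measured binding site.

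The BAI genes Adgrb1 and Adgrb2 carried more peaks than any other Adgr gene, and the folds of these peaks were at most 21.7. Adgrb1 (ENSMUSG00000034730), which encodes a receptor for phosphatidylserine on dying cells that also acts at synapses, had 6 peaks. Adgrb2 (ENSMUSG00000028782), its less studied paralogue, had 5. With 4 or more peaks there were 4 members, namely Adgrb1, Adgrb2, Adgrl1 and Tenm3, and 0.425% of all protein-coding genes. Adgrb1 was known to have several peaks when the members were chosen and the count of 4 was set after seeing the data, so nothing is read from this difference. These 4 genes held 20 of the 31 member peaks, while 9 of the 14 members with a peak had 1. When peaks of a gene less than 1 kb apart were merged, Adgrb1 had 4 regions, and Adgrb2, Adgrl1 and Tenm3 had 3 each.

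On Adgrb1, 4 of the 6 peaks lay within 4 kb of the gene's 5' end on chromosome 15. The peak over the TSS, at 74516101 to 74516400, had a fold of 14.1. The next, at 74516601 to 74517000, had a fold of 16.5. They were 200 bp apart. Further in, a peak of 200 bp at 2505 bp from the TSS had a fold of 18.6 and one of 700 bp in the first intron of a shorter transcript, at 3105 bp, had 14.1. A separate peak at 74564001 to 74564400 had a fold of 16.4 and lay 209 bp downstream of the TSS of an internal transcript, 47.8 kb from the gene's 5' end. The highest Adgrb1 fold, 20.3, was at the other end of the gene, in a 3' UTR peak at 74588701 to 74589200. All 6 folds were between 14.1 and 20.3, below the median of all promoter peaks. Not all 6 are promoter peaks, however. Those beyond 1 kb from a TSS had folds of 18.6, 14.1 and 20.3, against a median of 17.2 over all such peaks.

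Adgrb2 had a like arrangement on chromosome 4, with 4 of its 5 peaks within 4 kb of the 5' end. The peak at 129984501 to 129984800 ended 70 bp before the TSS and had a fold of 13.7. The peaks at 129985001 to 129985500 and 129986001 to 129986600 both had folds of 21.7. Another at 2931 bp, and the last, 2211 bp upstream of an internal TSS and 21.8 kb into the gene, both had folds of 15.3. No Adgrb2 peak overlapped a TSS of the authors' annotation, although the first of them covers the first base of the RefSeq gene. Adgrb3, which encodes a receptor for C1q-like proteins, had no assigned peak and none within 1 kb of its bounds. Over the 11 BAI peaks the median width was 400 bp, against 600 bp over the whole list.

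**Figure D2:**
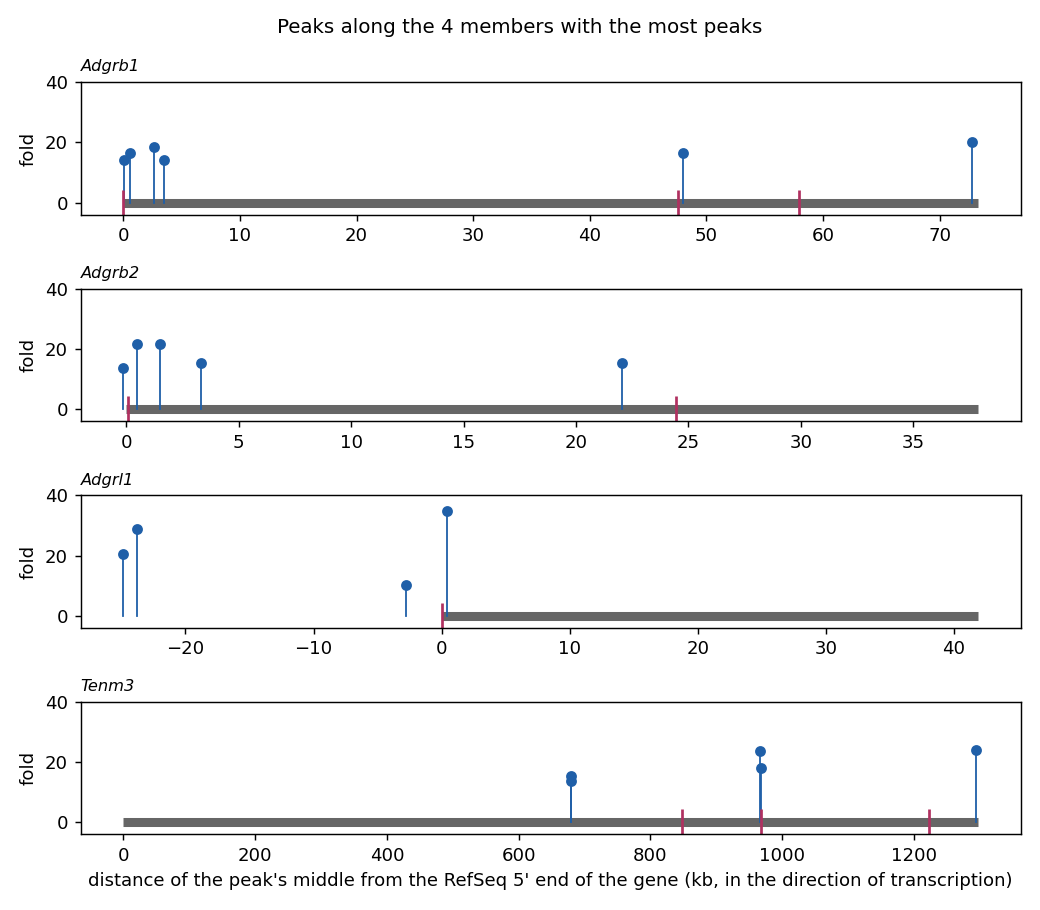
Peaks along the 4 members with 4 or more of them: the x axis is the distance of a peak's middle from the RefSeq 5' end of the gene (kb, along transcription, a different scale in each panel) and the y axis the fold of ChSP over input. Blue stems are peaks, the grey bar is the gene and red ticks are the start sites to which the authors' annotation refers. Adgrb1 and Adgrb2 each have 4 peaks within 4 kb of the 5' end, and Tenm3 has 0.

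Group A held the highest fold of all members. Adgra3 (ENSMUSG00000029090), also known as Gpr125, had a fold of 35.8 in a peak of 900 bp over its TSS at chromosome 5, 50058401 to 50059300 (the authors' p = 5.2e-23). Of all promoter peaks 85.4% had a lower fold. This peak also overlapped the end with the higher coordinate of an lncRNA gene, LOC115490186. Adgra2 (ENSMUSG00000031486), also known as Gpr124 and needed with Reck for Wnt7 signalling in brain vessels, had a fold of 30.6 over its TSS at chromosome 8, 27085301 to 27086100. A further peak lay in the last exon of Adgra2, exon 19, at 27121601 to 27122000 with a fold of 11.5, and the authors' annotation assigns it to the neighbour Brf2. Adgra1 had no assigned peak. The promoter stretches before the first base of Adgra3 (chr5:50058997-50059246, minus strand, 250 bases) and Adgrb2 (chr4:129984620-129984772, plus strand, 153 bases) are shown for the highest fold among the members and for the BAI gene with the highest promoter fold, with capitals as above.
Adgra3: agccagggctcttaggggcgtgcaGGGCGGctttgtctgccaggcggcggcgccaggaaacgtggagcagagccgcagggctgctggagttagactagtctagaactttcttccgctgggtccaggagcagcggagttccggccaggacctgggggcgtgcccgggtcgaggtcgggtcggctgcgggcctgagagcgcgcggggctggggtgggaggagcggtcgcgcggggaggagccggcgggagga
Adgrb2: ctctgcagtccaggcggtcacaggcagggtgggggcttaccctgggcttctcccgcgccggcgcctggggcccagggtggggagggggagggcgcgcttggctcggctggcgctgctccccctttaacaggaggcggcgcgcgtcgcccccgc
The Adgra3 stretch held 25 CpG dinucleotides and 1 GC box, and its peak covered it whole. The shorter Adgrb2 stretch held 15 CpG dinucleotides and 0 GC boxes. It lay under the Adgrb2 peak with a fold of 13.7, while the promoter peak with a fold of 21.7 began at 129985001, outside it. The full Adgrb2 window, which runs on past the first base of the gene, held 2.

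Among the remaining adhesion GPCRs, 3 had a promoter peak. Adgrg2 (ENSMUSG00000031298), known from the epididymis, had a fold of 27.8 over a TSS at chromosome X, 160390401 to 160390900. Adgrg6 (ENSMUSG00000039116), also known as Gpr126 and needed for Schwann cells to myelinate, had a fold of 19.5 at chromosome 10, 14544901 to 14545700. Adgre5 (ENSMUSG00000002885), which encodes CD97, a leukocyte receptor for CD55, had a fold of 15.1 at chromosome 8, 83741001 to 83741600, in a peak that also overlapped the lncRNA gene Gm46046. The other 14 had no assigned peak. They include Adgrg1, a gene of cortical development, Adgre1, which encodes the macrophage marker F4/80, and Adgrv1, which hair cells of the inner ear need. The rest are Adgrd1, Adgre4, Adgrf1, Adgrf2, Adgrf3, Adgrf4, Adgrf5, Adgrg3, Adgrg4, Adgrg5 and Adgrg7. None of these 14 had a peak within 1 kb of its bounds.

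Folds at the members' promoters were spread around the middle of the list. The 17 promoter peaks of the members had a median fold of 19.5 and ranged from 13.4 to 35.8, against a median of 22.2 and quartiles of 16.5 and 30.3 over all 7599 promoter peaks. Above the median of all promoter peaks were 6 of the 17, and at or above the upper quartile 3, at Adgra3, Adgrl1 and Adgra2. The 13 promoter peaks of Adgr genes had a median of 21.7 and the 4 of partner genes 18.1. Counted by gene, 5 of 10 Adgr genes had a promoter peak above the median of all promoter peaks. With 1 peak a gene, the one with the highest fold, the members' median was 21.9, against 22.8 over all genes with a promoter peak. The 14 member peaks beyond 1 kb from a TSS had a median fold of 15.3, against 17.2 over all 1907 such peaks. Peaks beyond 1 kb from a TSS were 14 of the members' 31, against 1907 of the 9506 in the list, so a count by p compares unlike mixes of peaks. Among the 4753 peaks of the list with the smallest p were 9 of the 31. Counted by gene, 7 of the 10 Adgr genes and 0 of the 4 partners with a peak kept one there. The share of all protein-coding genes with any assigned peak went from 33.6% to 19.6%. Peaks are not replicates, and these medians describe the list only.

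**Figure D3:**
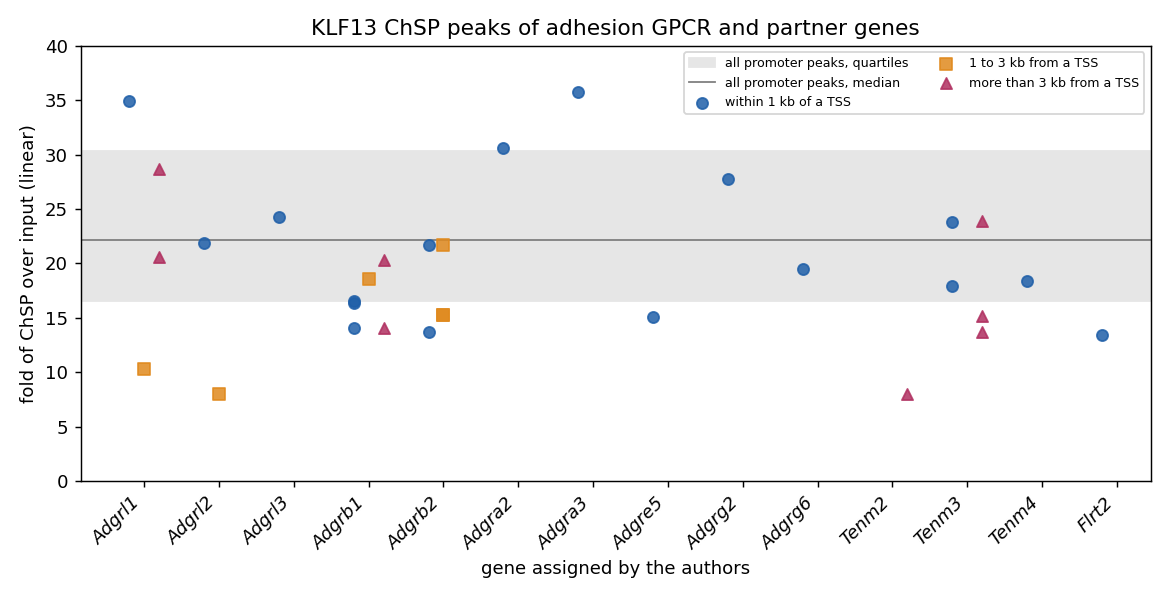
Fold of ChSP over input (y axis, linear) of each of the 31 peaks by the gene to which it is assigned (x axis), with the colour and shape giving the distance from a TSS. The grey band runs between the quartiles of all promoter peaks, 16.5 and 30.3, with their median of 22.2 as a line. Adgra3, Adgrl1 and Adgra2 stand above the band, and Adgrl2 and Tenm2 hold the lowest folds, 7.99 and 8.02.

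Teneurins, large membrane proteins that bind latrophilins, had peaks at 3 of 4 genes, and their positions depended on which transcript start was taken. Tenm3 (ENSMUSG00000031561) had 5 peaks on chromosome 8. A pair 200 bp apart, at 48554801 to 48555500 and 48555701 to 48556200, had folds of 17.9 and 23.8 at the TSS of a listed transcript, and both lay 967 kb downstream of the RefSeq 5' end. Another pair, at 48842901 to 48843200 and 48843301 to 48843500, had folds of 13.7 and 15.2. The authors' annotation calls this pair distal intergenic, at -168211 and -168611 bp from a TSS, whereas the RefSeq bounds of Tenm3 contain it. The last peak, at 48228401 to 48228900, had a fold of 23.9 in a 3' UTR, about level with the 23.8 at the promoter. Tenm3 and Adgrb1 were the members with a 3' UTR peak. In the whole list 1.44% of peaks were in this class, and of the members' peaks 2 of 31.

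Tenm2 (ENSMUSG00000049336) had 1 peak, at chromosome 11, 37236201 to 37236400, with a low fold of 8.02 (the authors' p = 4.69e-06). The annotation places it -291960 bp from a TSS and calls it distal intergenic, so it is no promoter peak in the counts above. In the RefSeq table it lies inside Tenm2, 653 bp from the 5' end of the gene. Tenm4 (ENSMUSG00000048078) showed the opposite: its peak of 1300 bp at chromosome 7, 96209901 to 96211200, with a fold of 18.4, overlapped the TSS of a listed transcript and lay 38.7 kb downstream of the RefSeq 5' end. Tenm1 had no assigned peak.

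The FLRT genes, which encode leucine-rich repeat proteins that bind both latrophilins and UNC5 receptors, also depended on the annotation. Flrt2 (ENSMUSG00000047414) had 1 peak, at chromosome 12, 95695201 to 95695600, with a fold of 13.4, over the TSS of a listed transcript and 3195 bp inside the RefSeq 5' end. Flrt1 had no assigned peak, but a peak of 1100 bp with a fold of 24.6 (the authors' p = 1.68e-13) lay within its RefSeq bounds on chromosome 19, at 7165001 to 7166100, 83 bp from the end of the gene with the higher coordinate. A second, at 7166201 to 7166400 with a fold of 12.7, began 18 bp beyond that end. The annotation puts both in intron 3 of Macrod1 and assigns them to Otub1, 40.2 and 39.9 kb away. The larger of these folds was above that of every peak assigned to a partner gene. Flrt3 and the LRRTM genes Lrrtm1, Lrrtm2, Lrrtm3 and Lrrtm4 had no assigned peak and none within 1 kb of their bounds. With a peak within 1 kb of either end of the RefSeq gene as the criterion, which 31.8% of all protein-coding genes met, the partners were Tenm2 and Flrt1 and not Tenm3, Tenm4 and Flrt2: 0 genes were shared. By the same criterion the 10 Adgr genes were the 10 with a promoter peak.

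Members' promoter windows under a peak held more CpG dinucleotides than those without a peak, though some of the latter held nearly as many. The RefSeq table holds 35 promoter windows of 300 bases, 250 before and 50 after a TSS, for 29 of the 38 members. Of these, 7 windows of 6 genes overlapped a peak: Adgra3, Adgrb2, Adgrg2, Adgrg6, Adgrl1 and Adgrl3. Adgrb1, Adgra2 and Adgre5 had a promoter peak but have no window. Adgrl2, Tenm3, Tenm4 and Flrt2 had promoter peaks at other starts, so their windows count as without a peak. The division is thus by window and not by gene. The 7 windows with a peak held 21 to 45 CpG dinucleotides, with a median of 34. The 28 windows without a peak held 0 to 20, with a median of 7, so the ranges did not overlap, though by 1 CpG only: the windows with 20 and 21 both belong to Adgrl3. Over all protein-coding genes the medians were 29 in windows with a peak and 7 in windows without, and the ranges, 1 to 65 and 0 to 67, overlapped almost whole. G and C made up 64.7 to 81.7% of the bases in the members' windows with a peak and 27.0 to 63.3% in those without.

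GC boxes followed the same division in part. At least 1 was present in 7 of 7 members' windows with a peak and in 7 of 28 without. Over all protein-coding genes 82.8% of windows with a peak and 32.6% of those without held one, and 46.2% of all windows. By gene, 12 of 29 members (41.4%) and 49.2% of all protein-coding genes had a window with a GC box. Adgrb3 is a case without a peak, as its window held 3 GC boxes. The longer box GGGGCGGGG (reverse complement CCCCGCCCC), which contains the short one, was found in 1 member, Adgrb2, and in 17.3% of all genes. A single form of the CACCC box, GGGTGTGG (reverse complement CCACACCC), was found in 0 members and in 4.21% of all genes. Other forms, such as the bare letters CACCC, were not searched, so this count does not show that the promoters lack CACCC boxes. All motifs were searched on both strands. The RefSeq windows of Tenm2, Tenm3, Tenm4, Flrt2 and Adgrl2 overlapped no peak, and the starts they use lay between 471 bp (Tenm4) and 292 kb (Tenm2) from the nearest peak. The Flrt3 promoter (chr2:140671477-140671726, minus strand, 250 bases before the first base of the gene) is shown as a partner without a peak.
Flrt3: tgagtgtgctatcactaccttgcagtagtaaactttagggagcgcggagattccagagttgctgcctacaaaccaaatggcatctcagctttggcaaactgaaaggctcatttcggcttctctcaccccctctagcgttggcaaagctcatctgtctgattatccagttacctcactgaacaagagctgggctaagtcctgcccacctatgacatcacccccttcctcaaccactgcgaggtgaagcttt
It held 5 CpG dinucleotides and 0 GC boxes, as many of each as the Adgrl4 stretch. The Flrt3 and Adgrl4 stretches were chosen after their values were seen, and 7 of the members' 28 windows without a peak did hold a GC box.

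**Figure D4:**
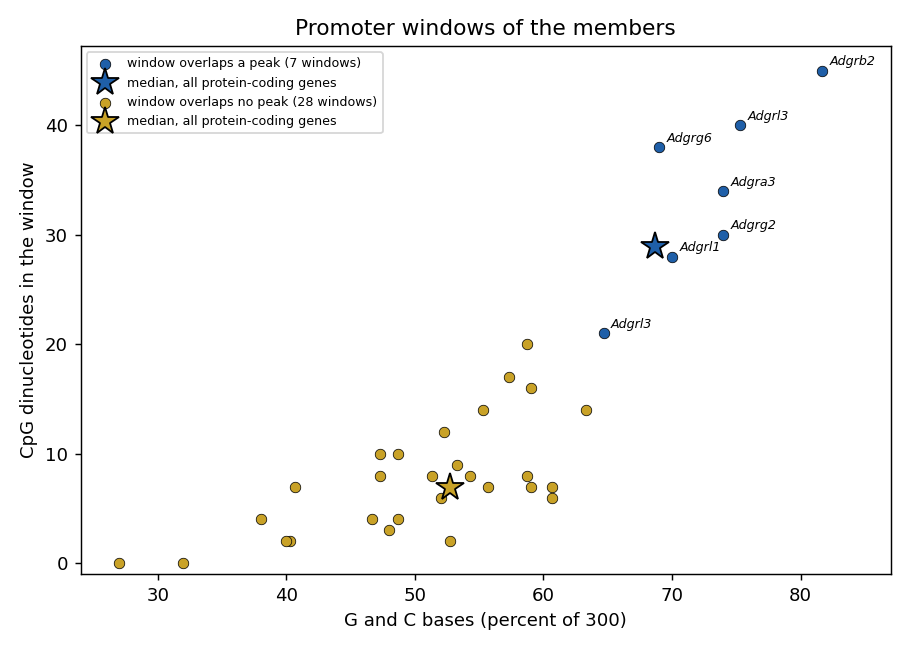
Number of CpG dinucleotides (y axis) against the percent of G and C (x axis) in the members' promoter windows of 300 bases, blue where the window overlaps a peak and yellow where it does not. Stars are medians over all protein-coding genes for windows with and without a peak. The 7 windows with a peak hold 21 or more CpG dinucleotides and the 28 without hold 20 or fewer.

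Many genes that act with these receptors had promoter peaks. In a list of 38 related genes, chosen for known roles, 29 (76.3%) had one, against 30.9% of all protein-coding genes. Of the 38 members 13 had one. Both lists were chosen with earlier results of these data known. Nothing is therefore read from these differences, which were not tested. The cadherin-bearing adhesion GPCR genes Celsr1, Celsr2 and Celsr3, which work in planar cell polarity and axon guidance and were named after their values were seen, all had one, with folds of 24.4, 22.6 and 20.8. Other partners and ligands had them at 15 of 22 genes, among them 4 of 4 UNC5 receptors, 4 of 4 C1q-like genes, 3 of 3 reticulon receptor genes, 2 of 3 neurexins and 1 of 3 neuroligins. Effectors had them at 11 of 13. The 4 highest promoter folds of the list were at effector genes. Arhgef11, a guanine nucleotide exchange factor that G12/13 proteins activate, had a fold of 40.1. Gna12 and Gna13, which encode those G protein subunits, had 38.5 and 35.5. Dock1, a Rac exchange factor that acts with ELMO downstream of Adgrb1, had 35.8. The folds of Arhgef11 and Gna12 were above every fold among the members. Elmo1, which encodes an ELMO partner of Dock1 and was named after its value was seen, had 20.2, below the median of all promoter peaks. Cd55 and Col3a1, ligands of Adgre5 and Adgrg1, had no assigned peak.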

How the data were processed

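KLF13 ChSP and input libraries of HT22 cells, 4 of each, were compared by the authors in 1 peak list. Per the submitters' processing notes, the tools included ChIPseeker (1.16.1), HOMER (4.9.1), BWA (0.7.17-r1188) and FastQC (0.11.3), with GRCm38 as the build. No role is given for any of them. PePr appears as the caller only in the list's name. The fold (a ratio on a linear scale), the p-value and adjusted p-value, and the score, a constant multiple of the fold, are the authors' deposited values. The file headers do not name these columns, which were read by their place and range. Every p was at or below 9.99e-06 and widths move in steps of 100 bp. Distances in bp and gene assignments are from the authors' annotation. Genes were joined by gene identifier to a RefSeq table and promoter sequences on GRCm38.p6. The members and lists were chosen with earlier results of these data known. All peaks of members were named, with, from the related list, the 4 highest promoter folds and the first 2 genes by alphabet without one. Beside the promoters that the rule took, those of Adgrl4 and Flrt3 were chosen after their values were seen. Adgrb1 has no window in the sequence table. No test was made, because the list has no value per library. The overlap and motif search were checked on simulated data (Python 3.11.15, pandas 2.3.3, numpy 2.4.6).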

Additional observations from a re-analysis of the deposited data

How the results depend on the processing

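No paired analysis was possible because each peak has a single fold for the 8 libraries together. For the same reason no library could be left out. Of 29 alternative values, 21 moved by at most 1.5 times (counts) or less than 1 SD over the member promoter peaks (median fold). These 21 include the partner count by either gene end, 2 against 3, although 0 genes were shared between the 2 criteria. Among the 4753 peaks with the smallest p, 6 Adgr genes and 0 partners kept a promoter peak (18.6% of all protein-coding genes), 0 partners kept any peak (19.6%), and the members' median promoter fold was 27.5, against 28.2 over all promoter peaks there. Among peaks with a fold at or above the median, 1 partner gene, Tenm3, had a promoter peak, as did 3949 of 21900 protein-coding genes. By the longer GC box 1 member promoter had a match, and by the CACCC string GGGTGTGG 0, both rarer strings than the GC box over all genes. The count of members with 4 or more peaks was chosen after seeing the data, as was merging peaks less than 1 kb apart, which left 1 member with 4 or more regions (0.160% of all genes). The count of any peak at partners among the smallest p was also added then. By construction, merging, the longer GC box and keeping only part of the peaks can only lower the counts. This does not hold for the CACCC string, which does not contain the GC box. With the smallest p, Adgr genes with a promoter peak went from 10 to 6. The share of all protein-coding genes went from 30.9% to 18.6%. The median promoter fold went from 19.5 to 27.5 for the members and from 22.2 to 28.2 over all promoter peaks. Beyond this the cause was not tested. Without depth, a missing peak is not shown to be absence of binding.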
